A study of Mus musculus with 2 samples.

Results

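CG methylation was measured at 10 genes of the TEAD and YAP pathway, namely Tead1, Tead2, Tead3, Tead4, Yap1, Wwtr1, Vgll3, Vgll4, Amotl2 and Lats2, in osteoblasts with and without the TET enzymes. The genes were picked by name, and each locus was its GENCODE M21 gene on the GRCm38 mouse genome with 25 kb on each side. They are 10 of 21755 protein-coding genes on chromosomes 1 to 19 and X. Each locus was read at the transcription start site (TSS), over the gene body and in 200 bp bins. The WT library came from wild type C57BL/6 mice, and the TCKO library from C57BL/6 mice carrying Prx1-Cre with floxed Tet1, Tet2 and Tet3, a Cre active in the mesenchyme of limb and skull. Both were primary osteoblasts from the calvaria of 3-day-old mice, harvested after 3 days in culture. Whether the wild type mice carried floxed alleles or Cre, and how many animals gave each culture, are not given in the sources used here. There was 1 whole genome bisulfite library per genotype and so no replicate. Every p-value and interval below therefore describes counting error between these 2 libraries and not the spread between mice or genotypes.

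The Hippo pathway is a kinase cascade that restrains growth, and its kinases LATS1 and LATS2 phosphorylate the co-activators YAP (Yap1) and TAZ (Wwtr1) and keep them out of the nucleus. Once in the nucleus, YAP and TAZ bind the TEAD proteins, which contact DNA, and switch on genes such as Ccn1 and Ccn2. Angiomotin-like proteins such as AMOTL2 hold YAP at cell junctions, and the vestigial-like proteins VGLL3 and VGLL4 bind TEADs at the surface that YAP uses. In bone cells, YAP and TAZ are known for answering to matrix stiffness, and TAZ is also a partner of RUNX2. TET1, TET2 and TET3 oxidise 5-methylcytosine, a step toward its removal, and a CG site that keeps its methyl group reads as C after bisulfite treatment.

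A level is given as the share of methylated calls among all calls of the CG cytosines in a region, on both strands, with its 95% Wilson interval. A difference is TCKO minus WT in percentage points, with its 95% Newcombe interval. The WT library held 261062118 calls, of which 70.2% were methylated, and the TCKO library 223581206 calls, of which 76.3% were, with a median of 4 calls per covered cytosine in each. As a check of the labels, the exon with the lowest ratio of TCKO to WT calls in each Tet gene was read: exon 11 of Tet1 was covered by 62 WT and 1 TCKO calls, exon 10 of Tet2 by 155 and 46, and exon 11 of Tet3 by 85 and 26. In 4356 other genes with 4 or more exons of at least 50 WT calls, the lowest exon was at or below the ratio of Tet1 in 1.40%, of Tet2 in 17.4% and of Tet3 in 18.9%. The low ratio is partly set by choosing the exon, and the values of Tet2 and Tet3 were not unusual. At the TSS of osteoblast markers the WT level was 16.3% for Runx2, 33.6% for Sp7 and 3.38% for Col1a1 but 76.8% for Bglap. At the myeloid and endothelial markers Ptprc, Csf1r, Spi1, Pecam1 and Cdh5 it was 69.3% to 77.7%. At markers of other cell types it ranged from 22.2% for Col2a1 (cartilage), 29.3% for Cdh1 (epithelium) and 34.1% for Myod1 (muscle) up to 72.8% for Adipoq (fat). The levels of osteoblast and other markers overlapped, and methylation at a TSS is no count of cells, so the share of other cell types was not measured.

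Within 2 kb on each side of the TSS, 4 of the 10 genes were called higher in TCKO and none lower (2-sided Fisher's exact test on the calls, Benjamini-Hochberg adjusted p below 0.05 over 21722 genes). Across all these genes 38.2% were called higher, so the count for the pathway was near the background. The median difference of the 10 genes was 2.54 points, beside 4.74 points over all genes. The genes called were Tead2, Tead3, Wwtr1 and Lats2, and the other 6 had differences between 0.144 and 4.13 points. The libraries do not cover the same cytosines, and with only those covered in both, an alternative chosen after seeing the data, Wwtr1 and Lats2 alone were called, beside 34.3% of genes. On the calls of each strand alone, Lats2 was the only one of the 10 called on both, and no share over all genes is given for that setting. Over the gene body all 10 were called higher, where 64.8% of 21477 genes were. All 10 were also called at the cytosines covered in both libraries, but no share over all genes is given for the body in that setting. The median body difference was 12.8 points, beside 5.70 points over all genes. Since long genes hold more calls, they were also set beside genes of their own length: among the 10290 genes as long as the shortest to the longest of the 10, 86.9% were called with a median difference of 6.39 points. Of the 10, 9 lay above the median of all genes, and Tead4 was the exception.

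**Figure D1:**
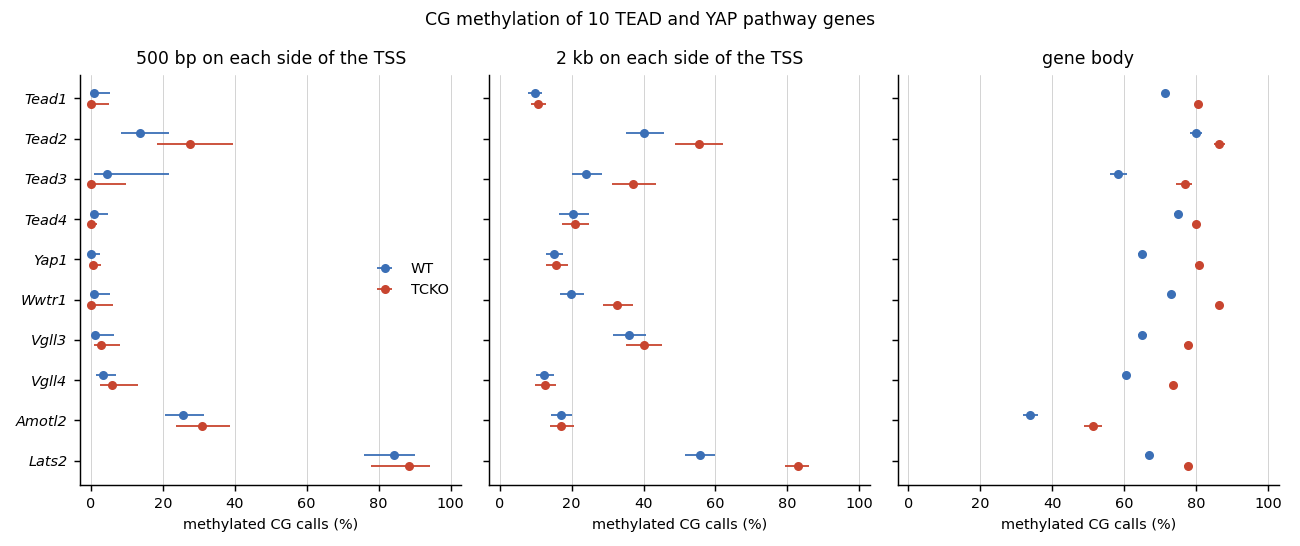
Methylated CG calls in percent (horizontal axis) of the 10 genes in the WT and TCKO libraries, for 500 bp and 2 kb on each side of the TSS and for the gene body; points are single libraries and bars are 95% Wilson intervals. Near the TSS most points of both libraries sit close to 0, while over the body every TCKO point lies to the right of its WT point, by 5.05 points for Tead4 up to 18.4 points for Tead3.

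The DNA-binding TEAD genes differed among themselves. Tead1 (ENSMUSG00000055320, chr7:112679318-112906807, plus strand), the longest of the 10 at 227.5 kb, stood at 9.71% (8.01 to 11.7) in WT and 10.7% (8.72 to 12.99) in TCKO around its TSS. That difference of 0.956 points had an interval of -1.85 to 3.83 and was not called (Fisher's exact test, adjusted p = 0.656). Its body was at 71.4% in WT and 80.6% in TCKO, a difference of 9.19 points (8.42 to 9.96). The flanks, introns and exons of Tead1 were each 7.97 to 11.2 points higher in TCKO, so the rise was spread along the locus.

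Tead2 (ENSMUSG00000030796, chr7:45215753-45233644, plus strand) was at 40.3% (35.0 to 45.7) around the TSS in WT and at 55.5% (48.7 to 62.1) in TCKO. The difference of 15.3 points was called (Fisher's exact test, adjusted p = 0.00278). Coverage moved with it, since the 500 bp just after the TSS, with no methylated call in either library, was covered by 53 WT and 17 TCKO calls. At the cytosines covered in both libraries the difference was 7.13 points and was not called (exact test, adjusted p = 0.267), and the mean of their levels differed by -0.169 points. Over the body the level went from 80.1% to 86.5%, with a difference of 6.42 points (4.13 to 8.67).

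Tead3 (ENSMUSG00000002249, chr17:28331671-28350817, minus strand) had the largest body difference of the 10, from 58.4% (55.9 to 60.8) in WT to 76.8% (74.5 to 78.9) in TCKO. That is 18.4 points (15.1 to 21.7), above 98.3% of all genes. Its first intron alone went from 56.0% of 924 calls to 78.0% of 856. Around the TSS the level was 24.1% in WT and 37.1% in TCKO, a called difference of 12.98 points (5.64 to 20.4; Fisher's exact test, adjusted p = 0.00249). Coverage moved with this difference too: the unmethylated step from 500 bp after the TSS was covered by 105 WT and 19 TCKO calls, and the step before it had no WT call. At the cytosines covered in both libraries the difference was 0.331 points and was not called, and the mean of their levels differed by -4.29 points.

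Tead4 (ENSMUSG00000030353, chr6:128224288-128300823, minus strand) was at 20.3% around the TSS in WT and 20.9% in TCKO (difference 0.582 points, -5.20 to 6.22; exact test, adjusted p = 0.918). Steps of opposite sign lay inside that window. In the 500 bp step that starts 1000 bp before the TSS, 12.7% of 63 calls were methylated in WT and 46.1% of 76 in TCKO. In the step from 1500 bp after it, 76.2% of 21 calls were methylated in WT and 44.4% of 18 in TCKO. The body was at 75% in WT and 80.1% in TCKO, and its difference of 5.05 points (3.63 to 6.45) was the smallest of the 10.

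Both co-activators had almost no methylated calls near the start in either library, and TCKO was higher further in. Yap1 (ENSMUSG00000053110, chr9:7931999-8004596, minus strand) had 0 of 150 methylated calls within 500 bp of its TSS in WT, which allows a share of up to 2.0%, and 1 of 205 in TCKO. Over 2 kb on each side it was at 15.1% in WT and 15.8% in TCKO (exact test, adjusted p = 0.848). Its body went from 64.9% (63.8 to 65.9) to 80.7% (79.7 to 81.7), by 15.9 points (14.4 to 17.3). The later introns carried most of the calls and were 15.3 points higher (13.8 to 16.8), while the flanks were 3.89 points higher downstream and 3.92 points higher upstream.

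Wwtr1 (ENSMUSG00000027803, chr3:57455649-57575910, minus strand), which encodes TAZ, had 1 of 102 methylated calls within 500 bp of the TSS in WT and 0 of 60 in TCKO. The count of 0 allows a share of up to 5%, and only 4 of the TCKO calls lay in the 500 bp after the TSS. Over 2 kb on each side the level was 19.96% (16.8 to 23.6) in WT and 32.6% (28.6 to 36.95) in TCKO. The difference of 12.7 points (7.25 to 18.04) was called (Fisher's exact test, adjusted p = 4.12e-05), as was that of 12.6 points at the cytosines covered in both libraries (exact test, adjusted p = 2.90e-04). On plus-strand calls alone it was 7.16 points and was not called (exact test, adjusted p = 0.148). TCKO lay above WT at both edges of the unmethylated stretch. Upstream, in the step that starts 1500 bp before the TSS, 14 of 25 WT and 17 of 23 TCKO calls were methylated, a difference within counting error (interval -8.84 to 41.2 points). The inner edge had more calls. In the step from 1000 bp after the TSS, 0 of 102 WT calls and 7.06% of 85 TCKO calls were methylated. In the next 500 bp the share was 2.83% of 106 calls in WT and 33.7% of 98 in TCKO. The Wwtr1 body went from 72.9% to 86.2%, by 13.3 points (12.4 to 14.2).

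**Figure D2:**
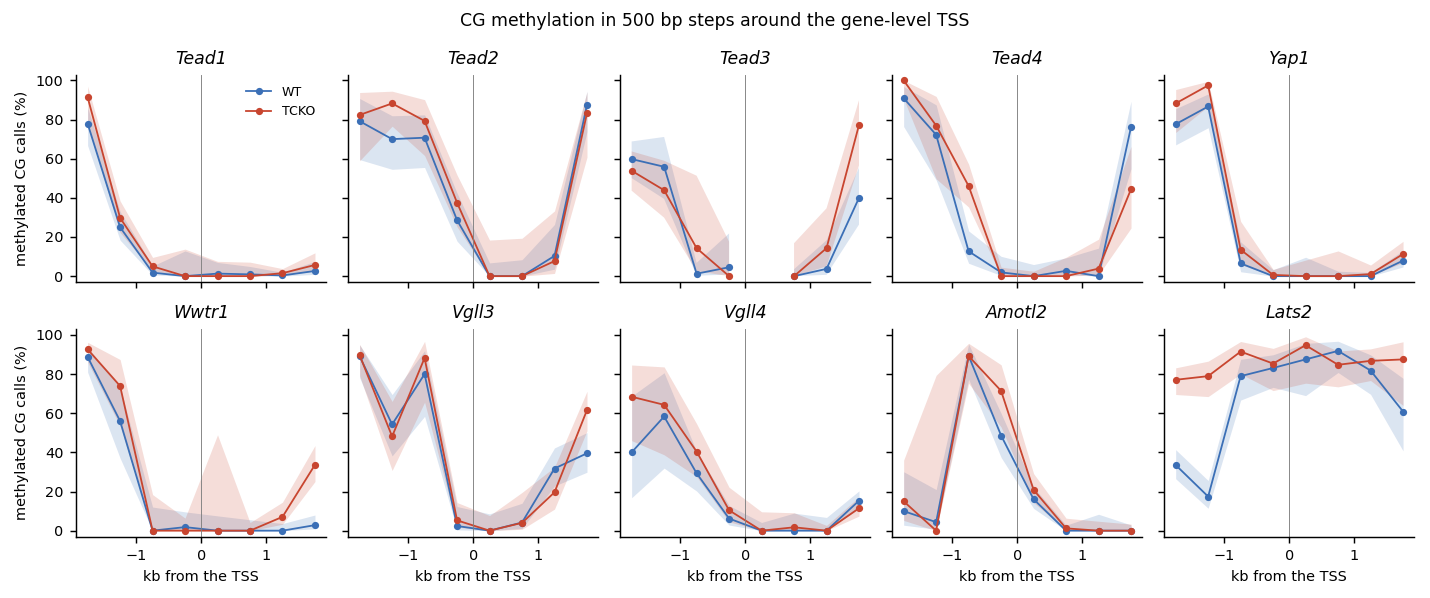
Methylated CG calls in percent (vertical axis) in 500 bp steps from 2 kb upstream to 2 kb downstream of the gene-level TSS (horizontal axis, kb), WT and TCKO, for each of the 10 genes; bands are 95% Wilson intervals, and a step without calls (Tead3 WT just after the TSS) is left blank. The lines part at 1 to 2 kb upstream for Lats2 and at 1.5 kb or more downstream for Wwtr1, and the wide TCKO bands of Amotl2 (1 call) and Wwtr1 (4 calls) mark steps with almost no calls.

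The vestigial-like genes were not called at the gene-level TSS and were higher over the body. Vgll3 (ENSMUSG00000091243, chr16:65815257-65866368, plus strand) was at 35.9% around the TSS in WT and 40.1% in TCKO (exact test, adjusted p = 0.362). The step from 1500 bp inside the gene was at 39.5% in WT and 61.6% in TCKO, of 86 calls in each. The body of Vgll3 went from 65.1% to 77.8%, by 12.7 points (11.02 to 14.4), and intron 1 from 54.6% to 73.4%.

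Vgll4 (ENSMUSG00000030315, chr6:114860628-114969994, minus strand) stood at 12.4% around its TSS in WT and 12.5% in TCKO. Its body went from 60.6% to 73.5%, by 12.9 points (11.7 to 14.1). The upstream flank of Vgll4, beyond 2 kb from the TSS, was 14.1 points higher (10.7 to 17.4), the largest flank difference of the 10 loci. A second annotated start, 48.2 kb inside the gene, had 0 of 160 methylated calls in WT, which allows up to 1.88%, and 15 of 137 in TCKO, or 10.9% (6.75 to 17.3). The transcript that numbers the introns of Vgll4 here begins at this start. Its introns and exons therefore leave out the part of the gene before it.

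Of the upstream inhibitors, Amotl2 (ENSMUSG00000032531, chr9:102716672-102733418, plus strand) was the shortest gene at 16.7 kb and had the lowest body level. Its body rose from 33.9% (31.8 to 36.2) in WT to 51.4% (48.9 to 53.8) in TCKO, by 17.4 points (14.1 to 20.7). Around the gene-level TSS the levels were 16.9% and 17.1% (exact test, adjusted p = 0.971). The other annotated start of Amotl2 lies 3.62 kb downstream and is used by 1 transcript. Within 500 bp of it 2 of 41 WT calls and 50 of 82 TCKO calls were methylated, or 4.88% (1.35 to 16.1) and 61.0% (50.1 to 70.8). That difference of 56.1 points (40.5 to 66.6) was the largest among the 22 start sites of the 10 genes. At the 13 of its 56 cytosines covered in both libraries the mean level was 1.92% in WT and 61.5% in TCKO. In the 500 bp step from 500 bp after the gene-level TSS, Amotl2 had 0 of 133 methylated calls in WT and 1 of 85 in TCKO.

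Lats2 (ENSMUSG00000021959, chr14:57689662-57758388, minus strand), a kinase that phosphorylates YAP and TAZ, had the largest TSS difference. Around the gene-level TSS it went from 55.7% (51.5 to 59.8) in WT to 83.0% (79.3 to 86.1) in TCKO, by 27.3 points (21.8 to 32.5; Fisher's exact test, adjusted p = 5.51e-19). This difference exceeded that of 99.01% of genes and was 26.6 points at the cytosines covered in both libraries. It came from 1 to 2 kb upstream, where in the step that starts 1500 bp before the TSS 17.4% of 109 calls were methylated in WT and 78.9% of 76 in TCKO. In the step that starts 2000 bp before it, the shares were 33.6% of 152 and 77.1% of 144. Within 500 bp of this TSS, which has 9 CpGs, the level was high in both libraries, 84.2% of 101 calls and 88.3% of 60. This start is used by 1 annotated protein-coding transcript.

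Lats2 has 5 annotated starts, and they behaved differently. The second, 12.3 kb inside the gene and with 125 CpGs in 1 kb, had 0 of 219 methylated calls in WT and 0 of 231 in TCKO, which allows up to 1.37% and 1.299%. It is used by 2 transcripts, among them the one that numbers the introns of Lats2 here. The third, 13.7 kb inside, went from 11 of 302 to 28 of 267 methylated calls, or 3.64% and 10.5% (difference 6.85 points, 2.67 to 11.4). The fourth, 24.1 kb inside and with 15 CpGs, went from 31.3% (22.9 to 41.1) to 70.8% (61.1 to 79.0), of 96 calls in each. The fifth was at 89.8% and 93.4%. The gene Gm49361 overlaps Lats2, so calls inside it cannot be given to either gene alone. Over the Lats2 body the difference was 10.8 points (9.42 to 12.2), from 66.8% to 77.7%.

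The differences at CpG-rich and CpG-poor start sites overlapped. Of the 22 annotated starts of the 10 genes, 10 had 40 or more CpGs within 500 bp on each side, and the differences there ran from -4.55 to 13.97 points. At the 11 starts with fewer CpGs and at least 20 calls in each library they ran from 0.131 to 56.1 points, and 1 of them, the second start of Tead1, turned from 3.33 points to a mean difference of -10.3 points at the cytosines covered in both libraries. With a window of only 500 bp on each side of the gene-level TSS none of the 10 genes was called higher, beside 9.1% of 20613 genes, and 1, Tead2, had an unadjusted p below 0.05 (13.7% of 102 calls and 27.7% of 65). A window of 1 kb gave 2 calls, beside 23.4% of genes, and these were Tead2 (14.03 points) and Tead4 (5.83 points; exact test, adjusted p = 0.0357), which was not called at 2 kb.

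By gene segment, TCKO was above WT in the later introns, the upstream flank and the downstream flank of all 10 genes. Segments were not read over all genes, so these values have no background of their own. The whole libraries also differed, at 70.2% in WT and 76.3% in TCKO, and the flank differences cannot be told from that shift. Introns and exons follow a single transcript of each gene, which at Vgll4 and Lats2 begins at the second annotated start. The median difference was 12.6 points in later introns, 8.29 points in intron 1, 9.12 points in exons, 5.24 points in the upstream flank beyond 2 kb and 7.53 points in the downstream flank. Intron 1 showed no difference for Wwtr1, where 0 of 28 and 0 of 19 calls were methylated, and the exons of Tead4 were the only other segment without a positive difference (-0.763 points, -8.62 to 7.15).

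**Figure D3:**
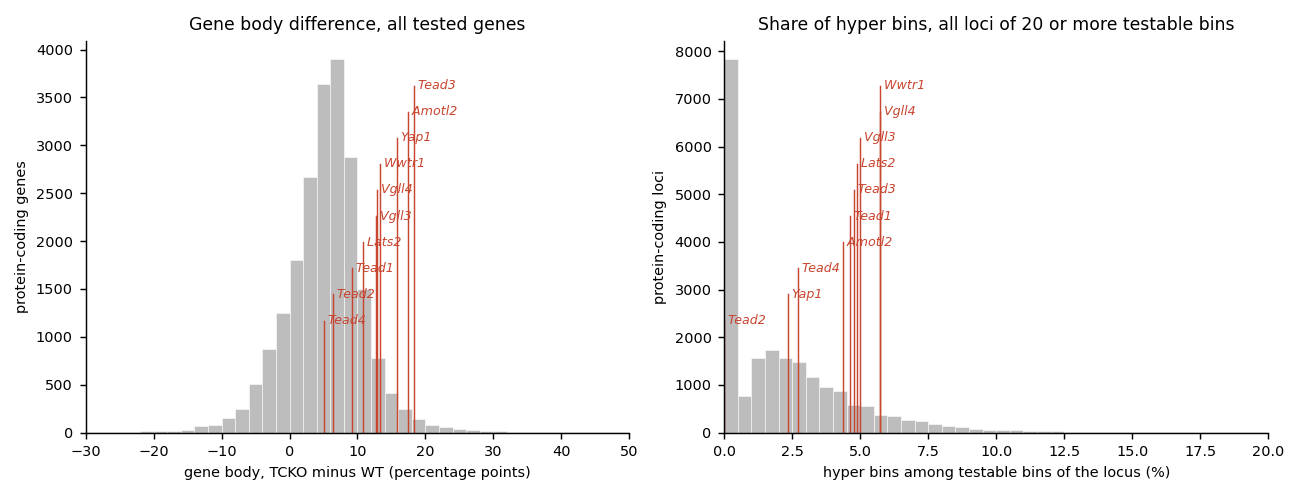
Left, TCKO minus WT over the gene body in percentage points (horizontal axis) for all tested protein-coding genes (grey bars, number of genes); right, hyper bins in percent of the testable bins of a locus, for all loci with 20 or more testable bins (grey bars, number of loci); red lines mark the 10 genes and their height has no meaning. On the left all but Tead4 lie above the median of all genes of 5.70 points, and on the right all but Tead2, which has no hyper bin, lie above the median locus of 1.61%. The loci were not matched by number of testable bins.

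The 200 bp bins showed where in the loci the methylation had gone up. A bin entered the test when it contained 4 CG cytosines or more and each library averaged 4 calls or more on them, and it was called hyper with an adjusted p below 0.05 and a gain of 40 points or more. In the 10 loci 1332 bins were testable, and 57 of them were hyper, or 4.28% (3.32 to 5.50), while genome-wide 2.87% of 2534629 bins were. None was lower by 40 points, as 0.0355% of bins genome-wide were. Without the threshold on the gain, 132 bins were past the adjusted p and higher and 2 were lower, where genome-wide 6.6% were higher and 0.177% lower. CpG-dense DNA was almost out of reach here: 41 of 159 bins with 4 or more CG cytosines within 2 kb of a TSS were testable, and 1 of 140 bins with 20 or more CG cytosines.

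Hyper bins were found at 9 of the 10 loci. Most protein-coding loci held hyper bins too: of 21139, 7830 had a share below 0.5%, a class that includes every locus without any. The exact share of loci with a hyper bin is not given, so the count of 9 has no exact background. Tead1 and Wwtr1 had 14 each, of 303 and 244 testable bins, Vgll4 had 7 of 122, Lats2 7 of 143 and Vgll3 5 of 100. Tead4 had 3 of 110, Yap1 3 of 129, Tead3 2 of 42 and Amotl2 2 of 46. Tead2 had 0 of 93, and a count of 0 allows a share of up to 3.23%. The shares ran from 2.33% for Yap1 to 5.74% for Vgll4 and Wwtr1 among loci with a hyper bin, and their intervals overlapped (0.794 to 6.61 for Yap1 and 3.45 to 9.40 for Wwtr1). Across 21139 protein-coding loci the median share was 1.61%, and the upper quartile 3.39%. Yap1 (2.33%) and Tead4 (2.73%) lay above that median but below the 2.87% of all testable bins genome-wide. The loci were not matched by number of testable bins.

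Of the 57 hyper bins, 37 (64.9%) were in introns, where 52.5% of the testable bins of these loci lay. Of these 37, 9 were in intron 1 and 29 were more than 10 kb from any protein-coding TSS. Of the others, 1 was in an exon, 9 in upstream flanks, 8 in downstream flanks, and 2 inside Vgll4 outside the transcript used for numbering. Of all 57, 4 lay within 2 kb of the TSS of any protein-coding gene, and 43 were more than 10 kb away. The median WT level was 23.5% and the median TCKO level 83.3%, values that the choice by gain partly sets. They were small sites: 46 of 51 separate stretches were single bins, and the longest covered 600 bp.

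**Figure D4:**
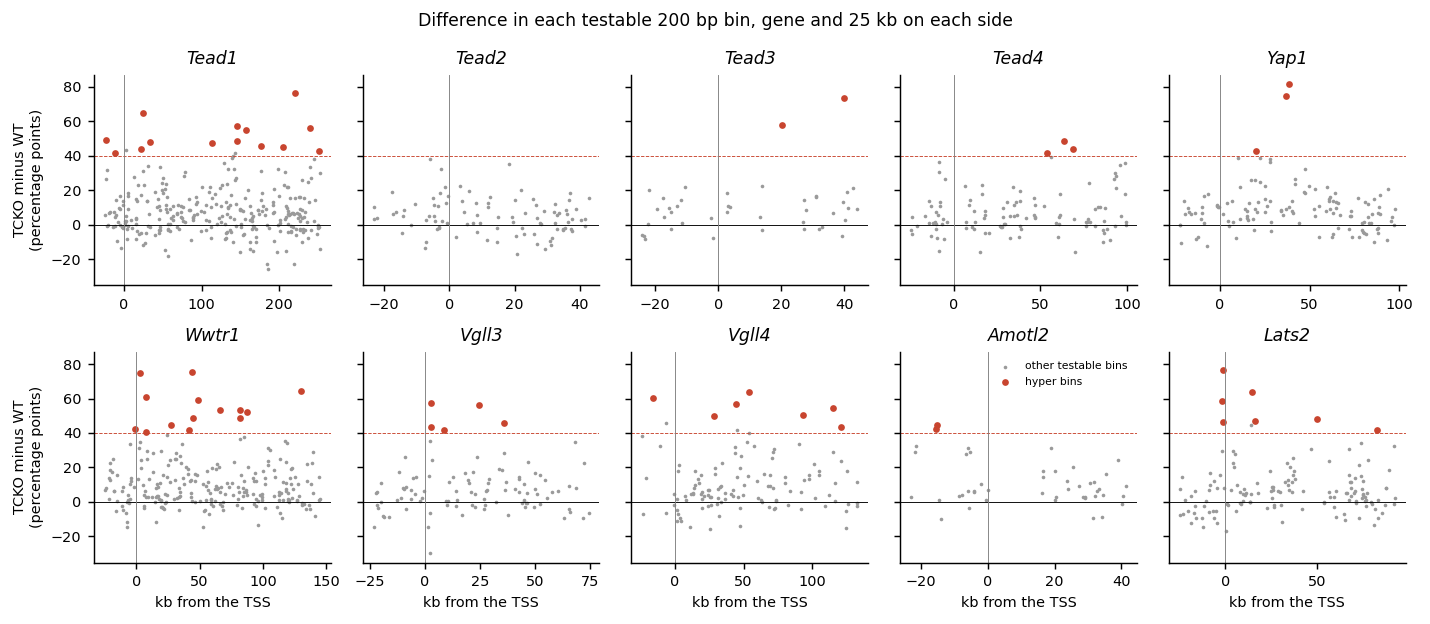
TCKO minus WT in percentage points (vertical axis) of each testable 200 bp bin against its distance from the gene-level TSS (horizontal axis, kb, positive into the gene); red points are the 57 hyper bins, grey points the other testable bins, and the dashed line marks 40 points. Hyper bins are scattered through Tead1 and Wwtr1, lie partly within 3 kb of the TSS in Lats2 (3 of 7) and Vgll3 (2 of 5), and are absent at Tead2.

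The largest gain of all 57 was in intron 3 of Yap1. The bin at chr9:7965801-7966000, 38.7 kb inside the gene, was at 3.03% of 33 calls in WT and 84.6% of 26 in TCKO. It holds 2 CpGs, with 1 of 13 and 0 of 20 methylated calls in WT and 10 of 12 and 12 of 14 in TCKO. A second bin of the same intron, chr9:7967601-7967800, went from 9.09% of 77 calls to 84.1% of 69. Both of its CpGs moved alike, from 1 of 39 and 6 of 38 methylated calls to 29 of 35 and 29 of 34. Neither bin lies within 10 kb of a protein-coding TSS, and both were almost unmethylated in WT.

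Wwtr1 had hyper bins along intron 2 and intron 3. The nearest to its start within the gene, chr3:57573001-57573200, is 2.81 kb downstream of the TSS and went from 6.25% (2.90 to 12.97) to 81.3% (72.3 to 87.8), of 96 calls in each. Its 5 CpGs each ran from 0 to 15.8% in WT and from 72.2% to 95% in TCKO. A bin 44.2 kb inside, chr3:57531601-57531800, went from 15.4% of 26 calls to 90.9% of 22 and touches another hyper bin. Beyond the gene end, chr3:57445601-57445800 went from 19.6% of 46 calls to 83.6% of 55. Every covered CpG of the Wwtr1 hyper bins was higher in TCKO, except in the bin 991 bp upstream of the TSS, where 1 of 2 was.

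Tead1 hyper bins were spread from 23.2 kb upstream of the TSS to 251.4 kb downstream of it. In intron 1, the bin at chr7:112703401-112703600 went from 2 of 40 methylated calls to 21 of 30. In exon 14, the last exon, chr7:112899401-112899600 went from 12.1% (4.82 to 27.3) to 88.6% (74.1 to 95.5). The bin with most calls, chr7:112918201-112918400 in the downstream flank, went from 14.6% of 123 to 70.6% of 163. At Tead3 both hyper bins were in the downstream flank. One of them, chr17:28311001-28311200, had 0 of 23 methylated calls in WT and 73.3% of 30 in TCKO, and the other lay within Rpl10a, the neighbouring gene. The bins of Tead4 had smaller gains, of 41.3 to 48.8 points.

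At Vgll4, chr6:114916001-114916200 in intron 1 was the hyper bin with most CG cytosines of the 57, 16 in all. It went from 9.93% (6.01 to 16.0) of 141 calls to 73.7% (65.1 to 80.8) of 118. Each of its 8 CpGs was higher in TCKO, from 0 to 30% in WT and from 46.2% to 93.8% in TCKO. At Lats2 a run of 3 touching bins, chr14:57759401-57760000, was the longest stretch and lay 1.3 kb upstream of the gene-level TSS. It went from 21.2% (15.7 to 28.1) of 165 calls to 78.9% (71.1 to 85.1) of 128, and all 10 of its CpGs were higher. This run is the same upstream DNA that set the Lats2 TSS difference, so the 2 results are not independent. Runs of 2 touching bins were also found in intron 1 of Vgll3 (29.2% to 79.6%), upstream of Amotl2 (30.2% to 73.8%) and at 2 places in intron 2 of Wwtr1 (36.1% to 92.9% and 39.1% to 86.2%).

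To show the DNA in question, a CpG of the non-exonic bin of largest gain at each locus is given with its surroundings. It is the CpG with most calls among those lying wholly inside the bin. Shown are 30 bases of the plus strand of GRCm38, 5′ to 3′, with each CG in capitals.
Tead1, chr7:112703542-112703571: acagaggagcatgtCGgctcccctgagatt
Tead3, chr17:28311100-28311129: caaccacatggtgaCGgtgactcacaacca
Tead4, chr6:128237463-128237492: aatctcacaggaacCGctaagcccaaaagc
Yap1, chr9:7965883-7965912: cccaggtattgtgaCGtgtcttctgtctgt
Wwtr1, chr3:57531603-57531632: atataactgggtacCGtaagcaaagtgctt
Vgll3, chr16:65818053-65818082: tgatcattattatcCGtgaaggttgttttc
Vgll4, chr6:114916181-114916210: actgctgagcaaggCGaaaaaataattacc
Amotl2, chr9:102701422-102701451: caCGggaagctcagCGtctgtggtcctggc
Lats2, chr14:57759710-57759739: aaataagtctattaCGctatattaaatcct

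All windows but that of Amotl2 hold a single CG. At the Tead3 and Yap1 CpGs none of 13 and none of 20 calls were methylated in WT, which allows up to 23.1% and 15%, and 14 of 15 and 12 of 14 were in TCKO. The Lats2 CpG had 4 of 11 in WT and 9 of 9 in TCKO, and the Vgll4 CpG 3 of 21 and 16 of 19. A CpG across the edge of the Lats2 bin had more calls, 1 of 20 methylated in WT and 10 of 13 in TCKO. The Tead4 CpG was the most methylated in WT, with 12 of 31 calls, and reached 22 of 26 in TCKO.

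The product of 4 of these genes binds DNA itself, so the hyper bins were searched for the TEAD string CATTCCA on both strands. It occurred in 2 of the 57, or 3.51% (0.968 to 11.9), and in 3.19% of all testable bins genome-wide. Of the 72815 hyper bins genome-wide 5.62% held it, which is within the interval at these loci too. The AP-1 string TGANTCA was in 6 of the 57 (10.5%, 4.91 to 21.1), beside 5.80% of all testable and 13.01% of all hyper bins. The Runt string AACCACA was in 4 (7.02%, 2.76 to 16.7), beside 5.0% and 9.002%. With 57 bins these shares could not be told from either background. No bin held the TEAD string with either of the others. The bins with the TEAD string were in intron 2 of Tead1 and upstream of Wwtr1, shown here as 30 bases with the string in capitals.
Tead1, chr7:112836480-112836509, minus strand: aattgagcctatCATTCCAgcctgtcaaaa
Wwtr1, chr3:57576842-57576871, plus strand: ctttttaagttaCATTCCAgaaagccccta

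The string holds no CG, and the nearest CG cytosine is 50 bp away at Tead1 and 14 bp away at Wwtr1. The Tead1 bin went from 40.6% of 32 calls to 95.7% of 23, and the Wwtr1 bin from 0 of 19 to 8 of 19. At Wwtr1 the CpG nearest the string had 0 of 8 methylated calls in WT and 0 of 5 in TCKO. The gain of that bin was at its other CpG, from 0 of 11 to 8 of 14. A string match describes the letters and does not say that a TEAD protein is bound.

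**Figure D5:**
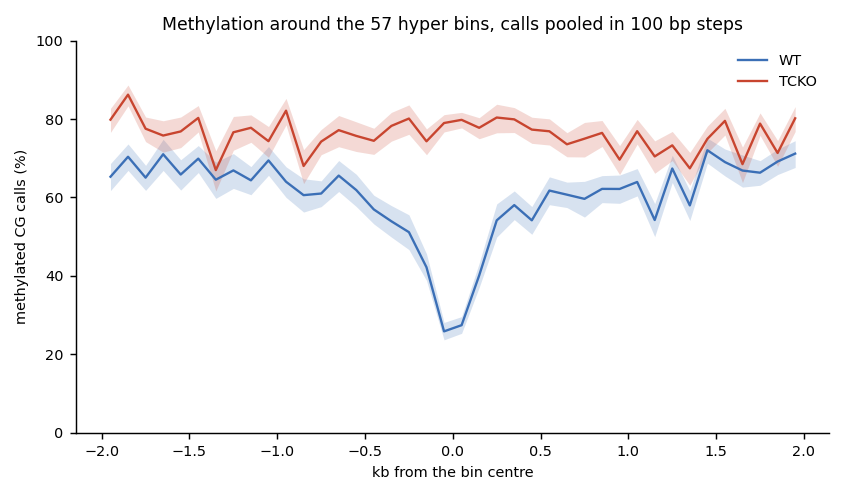
Methylated CG calls in percent (vertical axis) pooled in 100 bp steps around the centres of the 57 hyper bins (horizontal axis, kb), WT and TCKO; bands are 95% Wilson intervals, and calls near touching bins enter more than once. In WT a narrow dip reaches about the level of the bins themselves (26.7% over all their calls), while TCKO stays near 79.4% across it.

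Beyond the bins the loci also differed, by less. From 1 to 2 kb away from the bin centres, WT was at 66.7% of 13006 calls and TCKO at 76.2% of 10916, a difference of 9.54 points. Since the gain chose the bins, it was also read on calls that the choice did not use. At the 26 bins of these loci chosen for 40 points on plus-strand calls alone, the minus-strand calls went from 36.0% of 801 to 76.8% of 729. That gain was 40.9 points (36.2 to 45.2), beside 53.4 points on the strand used for choosing. Of these bins 25 were higher on the other strand. Genome-wide the gain on the unused strand was 34.3 points.

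The share of hyper bins was also read by WT level and number of CG cytosines. Among testable bins of 4 to 9 CG cytosines with a WT level of up to 20%, 20 of 58 were hyper (34.5%), beside 40.8% of 57973 such bins genome-wide. Among those with a WT level above 20% and up to 60%, 29 of 191 were hyper (15.2%), beside 9.29% genome-wide. In bins of 10 to 19 CG cytosines the shares of these classes lay closer together, 3 of 16 (18.8%) and 5 of 26 (19.2%), beside 22.1% and 16.5% genome-wide. The WT level enters both the class and the gain, and no test was made between the loci and the genome.

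Just inside the threshold of 40 points were a bin in intron 2 of Wwtr1 (53.1% to 93.9%, 40.8 points) and a bin in intron 5 of Tead4 (51.1% to 92.5%, 41.3 points). Just outside were a bin in intron 1 of Vgll4 (8.57% to 48.5%, 39.9 points) and a bin in intron 2 of Tead1 (48.8% to 88.6%, 39.8 points). A further 5 bins gained 40 points or more without passing the adjusted p.

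The other genes of the pathway were read from a list of 20 regulators and 11 targets, all of which were tested. At the TSS 9 regulators and 5 targets were called higher, 14 of 31 in all, beside 38.2% of all genes, and 2 regulators were called lower, beside 2.89%. Over the body all 31 were called higher, beside 64.8% of all genes, with a median difference of 9.70 points, beside 5.70 points. Unlike the 10 genes, these 31 were not set beside genes of their own length. The 5 largest TSS rises were those of Birc5, an inhibitor of cell death, from 29.5% of 349 calls to 56.1% of 223, Sav1, the scaffold of the MST kinases, from 35.9% to 57.3%, Ccn2, from 15.6% to 33.3%, Ankrd1, from 69.0% to 85.4%, and Mob1b, a LATS co-activator, from 16.6% to 32.7%. Their adjusted p ran from 4.56e-16 for Sav1 to 1.91e-06 for Ccn2 (Fisher's exact test), and all 5 were also called at the cytosines covered in both libraries. The targets Ccn1, Ccn2 and Ankrd1 had body differences of 24.2, 24.8 and 22.9 points, larger than any of the 10 genes. The regulators Sav1 and Frmd6 also had larger ones than the 10 genes, of 20.4 and 18.95 points. The other targets ran lower, from 4.06 points for F3 to 17.2 points for Fstl1. The 2 regulators that fell at the TSS were Wwc1, a LATS activator also called KIBRA, from 41.1% to 32.8% (exact test, adjusted p = 0.0146), and Amot, the founding angiomotin, from 14.5% to 9.55% (exact test, adjusted p = 0.0460). Neither was called at the cytosines covered in both libraries (exact test, adjusted p = 0.187 and 0.170). Lats1, the partner kinase of Lats2, was at 16.1% in WT and 21.1% in TCKO and was not called (exact test, adjusted p = 0.0802).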

How the data were processed

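Each library is 1 file of CG cytosines with position, strand, methylated calls and all calls, whole-number counts as deposited. The authors aligned reads to GRCm38 with BSMAP 2.74 (per the labels), allowing 2 mismatches and 1 best hit on both strands, and counted uniquely mapped reads. Duplicate removal is not given in the sources used here, and bisulfite does not separate 5-methylcytosine from 5-hydroxymethylcytosine. All positions matched a CG of the reference. Gene-level TSS and body were taken from GENCODE M21. Counts were pooled per region and compared with Fisher's exact test (2-sided), adjusted by Benjamini-Hochberg over all protein-coding genes with at least 20 calls per library, or over all testable bins. The code was tested on simulated data. Calls on 1 read are not independent, so p-values are too small and intervals cover counting error only. The authors' differential regions used 200 bp bins, 4 sites and 40 points, with a test that was replaced here by Fisher's exact test. Genes, lists and strings were chosen with earlier results of these data known. Named were the 10 genes, the largest-gain bin of each locus, runs of touching bins, bins at the threshold, and the 5 largest rises and up to 3 largest falls called in the list (2 were called). Alternatives changed the window, strand, depth, minimum counts, flank and bin phase. Python 3.11.15, numpy 2.4.6, scipy 1.17.1, pandas 2.3.3 and numba 0.67.0 were used.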

Additional observations from a re-analysis of the deposited data

How the results depend on the processing

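With 1 library per genotype no replicate could be left out, and no paired analysis was possible because each genotype has 1 library. The body differences of the 10 genes stayed positive under all 60 alternatives and past the threshold wherever tested. No share over all genes is given for the body under these alternatives. The TSS results depended on the window. The number of the 10 genes called higher fell from 4 to 2 (Tead2 and Tead4) at 1 kb on each side, to 0 at 500 bp and to 1 (Lats2) with call counts divided by 4. For the pathway list it fell from 14 to 6, 2 and 5 under the same settings. At the cytosines covered in both libraries the list had 16 of 31 called higher, beside 34.3% of genes. There Frmd6 and Taok2 lost the call, and Stk4, Taok1, Nt5e and Fstl1 gained it. At 1 kb Wwtr1 turned to -0.513 points. At 500 bp Tead1 turned to -0.971, Tead3 to -4.55, Tead4 to -0.885 and Wwtr1 to -0.980 points. Plus-strand calls alone gave 3 called genes, Tead3, Lats2 and Yap1 (8.59 points; exact test, adjusted p = 0.0252), and Tead2 and Wwtr1 lost the call (exact test, adjusted p = 0.402 and 0.148). Minus-strand calls alone gave 4, Tead2, Wwtr1, Lats2 and Amotl2 (13.99 points; exact test, adjusted p = 0.0318), and Tead3 lost it (exact test, adjusted p = 0.254). The share over all genes is not given for single-strand calls or divided call counts, so these counts cannot be set beside a background. On plus-strand calls only, Tead4 turned to -5.50, Vgll4 to -4.10 and Amotl2 to -1.02 points, and on minus-strand calls only Yap1 turned to -4.80. With the mean of site levels, Tead3 turned to -3.03 and Vgll4 to -0.625 points. In that setting Tead4 went from 0.582 to 14.3 points and Yap1 from 0.706 to 5.69 points, both outside the intervals of their main differences. With only cytosines covered in both libraries, chosen after seeing the data, 2 of the 10 genes were called higher and Yap1 turned to -1.84 points, and the mean of their levels was -0.169 points for Tead2 and -4.29 points for Tead3. The 57 hyper bins became 126 of 3138 testable bins with at least 1 call per cytosine (4.0%, beside 2.58% genome-wide). With at least 10 calls they became 10 of 230 (4.35%, beside 1.91%). With call counts divided by 4 they became 5 (a share of 0.375%, beside 0.164% genome-wide). A flank of 100 kb gave 133 of 2895 (4.59%, beside 2.87%). The cause was not tested where the construction does not give it. Depth limits CpG-dense starts most.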

Other observations

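At Vgll3, bins of opposite sign lay close together in intron 1. The bin at chr16:65817201-65817400, 2.04 kb inside the gene, went from 68.8% of 64 calls in WT to 39.1% of 46 in TCKO, a fall of 29.6 points (Fisher's exact test, adjusted p = 0.0487) and the lowest difference among the 1332 testable bins of the 10 loci. The run of hyper bins at chr16:65817801-65818200, in the same intron, went the other way, from 29.2% of 178 calls to 79.6% of 113. The bin was named after its values were seen.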
